A study of Mus musculus with 2 samples.

Results

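Transcripts of the synaptic vesicle and exocytosis machinery were compared between the hypothalamus of Crtc1 knockout mice and that of wild-type mice. The genes were those named as synaptotagmins, synapsins, syntaxins, syntaxin-binding proteins, Vamp and Snap proteins, Rab3 GTPases, SV2 proteins, complexins, Munc13 (Unc13) and RIM (Rims) proteins, synaptophysin, synaptoporin, Nsf or CAPS (Cadps) proteins. They were found by their symbols, which gave 172 of the 34945 probe sets that the platform annotation paired with 1 gene, and 73 of 18193 genes. The knockout group was 1 array of hypothalamic RNA pooled from 3 males lacking Crtc1, and the wild-type group was 1 array of RNA pooled in the same way from 3 males with intact Crtc1. All animals were 12 weeks old and had gone 18 h without food before eating again for 6 h, so no fed or fasted baseline was part of the design. The strain, the construction of the Crtc1 allele and whether it was absent from all cells are not stated in the labels. The Crtc1 protein helps CREB, a transcription factor, to switch genes on, and the title of the study links it with energy balance and fertility.

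Neurons release transmitters and peptides when a vesicle membrane fuses with the plasma membrane. A vesicle SNARE of the Vamp family zips together with syntaxin and Snap25 on the target membrane, Munc13, RIM and CAPS proteins prepare the vesicle, complexins hold the assembled SNAREs, and synaptotagmins trigger fusion when calcium enters. Rab3 GTPases, synapsins, synaptophysin and SV2 proteins sit on the vesicle, and Nsf takes spent SNARE complexes apart. In the hypothalamus the same machinery releases small transmitters at synapses and, from dense-core vesicles, the peptides that govern feeding, water balance and reproduction.

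CREB binds the palindrome TGACGTCA and its shorter core TGACG, which the palindrome holds on both strands. RefSeq promoter windows (build GRCm38.p6, from 250 bases before to 50 after the gene start) were held for 59 of the 73 genes. The palindrome was found, with both strands searched, in 2 of these 59 genes (3.39%), against 2.03% of all 27025 genes with a window. The core was found in 16 members (27.1%), against 23.0% of all genes. The windows of Syn1 and Stxbp3 are shown because they hold the palindrome, and those of Syt2 and Rab3b because these members hold the core and lie near the low and the high end of the differences described below. Each runs 5′ to 3′ on the strand of the gene and ends at the last base before its start, and capitals mark the motif.
Syn1, chrX:20920919-20921168, minus strand: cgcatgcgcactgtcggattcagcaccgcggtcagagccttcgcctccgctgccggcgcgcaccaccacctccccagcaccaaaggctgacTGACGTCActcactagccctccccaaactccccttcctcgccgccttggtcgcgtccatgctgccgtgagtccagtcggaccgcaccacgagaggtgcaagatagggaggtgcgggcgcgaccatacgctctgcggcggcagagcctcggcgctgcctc
Stxbp3, chr3:108840503-108840752, minus strand: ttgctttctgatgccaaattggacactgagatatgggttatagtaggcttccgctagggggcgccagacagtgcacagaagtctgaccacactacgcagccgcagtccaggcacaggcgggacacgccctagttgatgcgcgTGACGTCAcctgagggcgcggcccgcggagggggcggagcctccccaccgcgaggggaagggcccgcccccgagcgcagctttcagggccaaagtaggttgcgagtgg
Syt2, chr1:134646362-134646611, plus strand: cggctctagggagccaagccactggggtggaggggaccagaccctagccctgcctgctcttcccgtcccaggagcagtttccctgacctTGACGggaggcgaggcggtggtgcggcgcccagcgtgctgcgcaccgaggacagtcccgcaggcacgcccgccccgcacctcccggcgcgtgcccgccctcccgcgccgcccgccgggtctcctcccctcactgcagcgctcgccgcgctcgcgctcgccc
Rab3b, chr4:108878820-108879069, plus strand: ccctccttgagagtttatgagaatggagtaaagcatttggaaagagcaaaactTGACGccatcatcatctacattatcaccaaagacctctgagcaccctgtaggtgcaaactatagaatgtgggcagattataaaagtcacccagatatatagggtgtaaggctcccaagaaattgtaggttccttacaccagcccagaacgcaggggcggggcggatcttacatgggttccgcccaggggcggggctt
The palindrome began 159 bases before the start in Syn1 and 108 bases before it in Stxbp3. The core began 161 bases before the start in Syt2 and 197 bases before it in Rab3b.

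The signal of Crtc1 itself was 85.1 in knockout and 631 in wild type by its brighter probe set, 7.42-fold lower, and 31.5 and 209 by the next. Signals are the authors' linear probe-set values. Every difference given is the log2 signal in knockout minus that in wild type, with signals below the 30th percentile of an array (20.5 for knockout, 20.2 for wild type) raised to it. Probe sets were taken as measured if their mean log2 signal reached 5.71, the median over all probe sets, and the brightest measured one by mean signal stood for its gene. With 1 array per genotype there is no test between genotypes and no spread between mice. The one error that could be measured is the array error, the SD of the difference between measured probe sets of the same gene, in log2 units. Error shared by all probe sets of a gene, such as that between pools, is not part of it. For genes grouped by the mean log2 signal of their probe sets, the array error was 0.34 under 7, 0.27 between 7 and 8 and 0.24 between 8 and 9. It was 0.19 between 9 and 10, and 0.17 at 10 or more. Each probe set was set beside the value for its own signal. In pooled tissue, fewer cells of a type and less RNA per cell cannot be told apart.

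Of the 14 markers listed for the hypothalamus 8 were measured, 4 higher and 4 lower, and all but Otp were neuropeptide genes. By brightest probe sets they ran from -0.35 (Pomc) to 0.56 (Avp) with a median of -0.01. The probe sets of Pomc disagreed in sign, with a mean of 0.14. The summed signal of the 13 listed markers on the array was 9382 in knockout and 9123 in wild type. Avp and Oxt, which encode vasopressin and oxytocin, read 1690 and 969 in knockout, against 1149 and 695 in wild type. Sst, which encodes somatostatin, read 1875 in knockout and 2199 in wild type. Pmch, which encodes the peptide MCH, read 3341 in knockout and 3498 in wild type, and Hcrt, which encodes the orexins, read 817 and 883. The 10 pan-neuronal markers were all measured and differed by -0.23 to 0.04 with a median of -0.05, 8 lower and 2 higher, and their summed signal was 26956 in knockout and 27684 in wild type. Choroid plexus markers were lower in 7 of 7 (median -0.38, summed signal 8825 in knockout and 9982 in wild type), and microglia markers were higher in 7 of 8 (0.23, sums of 4129 and 3547). Medians were 0.05 for 8 astrocyte markers (sums of 19814 in knockout and 19241 in wild type), -0.01 for 7 oligodendrocyte markers (19521 and 19787) and 0.07 for 6 endothelial markers (1178 and 1046). Of markers of neighbouring regions, 8 of cortex and hippocampus had a median of 0.15 (sums of 4761 in knockout and 4328 in wild type), 4 of striatum 0.10 (1945 and 1784) and 6 of thalamus -0.09 (7803 and 8124). Those of cortex and hippocampus were 5 higher and 3 lower, from -0.46 (Emx2) to 0.65 (Neurod6), and Nrgn gave 2995 of the knockout sum. Those of thalamus were 2 higher and 4 lower, and Tcf7l2 was higher by all 4 measured probe sets with a mean of 0.53. None of the pituitary markers was measured. The part of cell makeup or dissection in the values below was not tested.

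Of the 73 genes, 67 were measured, through 139 of 172 probe sets. Those below the limit were Syt6, Syt8, Stx11, Stx19, Cplx4 and Sv2c, and the probe set of Sv2c read 40.2 in knockout and 30.4 in wild type. By their brightest measured probe sets, none of the 67 genes differed at least 1.5-fold, while 2.06% of all 11312 measured genes were that much higher and 1.44% that much lower. These shares of all genes depend on signal. They were 4.37% and 2.82% below a mean log2 signal of 8, where 17 of the 67 members lay. Between 8 and 10 they were 0.469% and 0.511%, and at 10 or more 0% and 0.168%. The widest differences were 1.46-fold higher (Rab3b) and 1.39-fold lower (Syt14). At 1.2-fold, 5 members were higher and 6 lower, 7.46% and 8.96% of the 67, beside 11.9% and 9.97% of all genes. With the arrays centred on their medians the same counts were 2 higher and 10 lower, beside 8.73% and 14.6% of all genes in that setting. The median difference of the members was -0.04 and that of all measured genes 0.00. Of the members 36 were lower (53.7%, beside 49.0% of all measured genes) and 31 higher. The members' median was 0.02 when only brighter probe sets were kept.

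**Figure D1:**
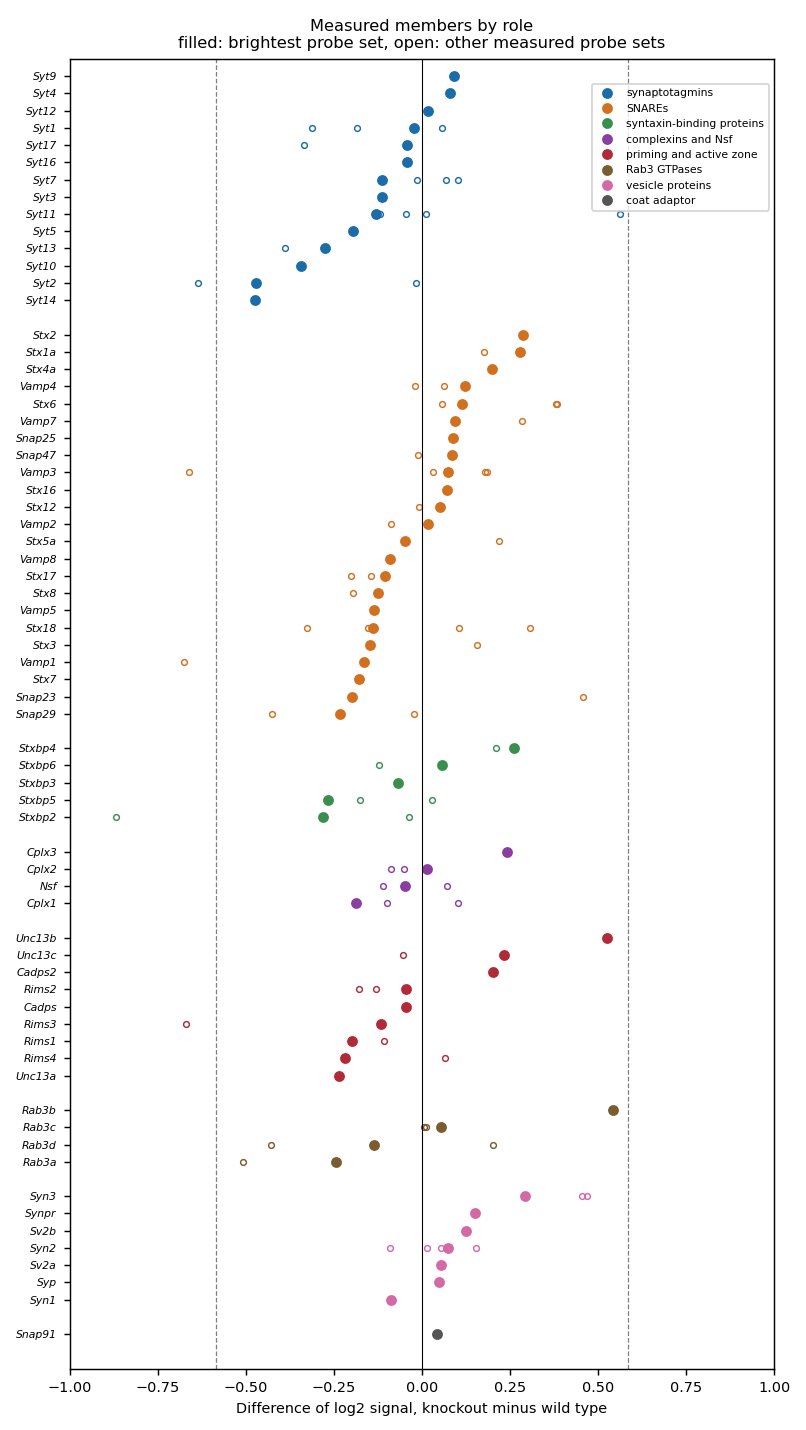
Differences of log2 signal (knockout minus wild type, x axis) of the 67 measured members, 1 line per gene and 1 colour per role. Filled points are the brightest measured probe set of a gene, open points its other measured probe sets, and dashed lines mark 1.5-fold; every filled point lies between them, from -0.47 (Syt14) to 0.54 (Rab3b).

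Counted by probe set, 1 of 139 was at least 1.5-fold higher (0.719%, against 2.65% of all 19814 measured probe sets) and 5 were at least 1.5-fold lower (3.60%, against 1.79%). At 1.2-fold, 14 were higher (10.1%, against 13.9%) and 18 lower (12.9%, against 11.8%). The 6 probe sets past 1.5-fold belonged to 6 genes, and in each the brightest probe set of the gene differed less. The higher one was of Syt4, and the lower ones were of Stxbp2, Vamp1, Rims3, Vamp3 and Syt2. The count of 5 lower probe sets became 3 of 120 without probe sets that can match several transcripts (1.83% of all such probe sets were lower), 2 with a pseudocount (1.12% of all) and 1 of 105 with a stricter limit on signal (0.671% of all).

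Differences shrank as signals grew. Of 27 members with a mean log2 signal of 10 or more, 25 (92.6%) lay within 1.2-fold, as did 95.3% of all 1790 such genes. The figures were 87.0% and 85.5% between 8 and 10, and 64.7% and 64.5% below 8. Among the 17 members below 8, 12 were lower and 5 higher with a median of -0.14, whereas 44.1% of all genes in that range were lower and their median was 0.04. In all, 17 of the 67 members (25.4%) differed by more than their array error, and so did 24.4% of all measured genes.

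**Figure D2:**
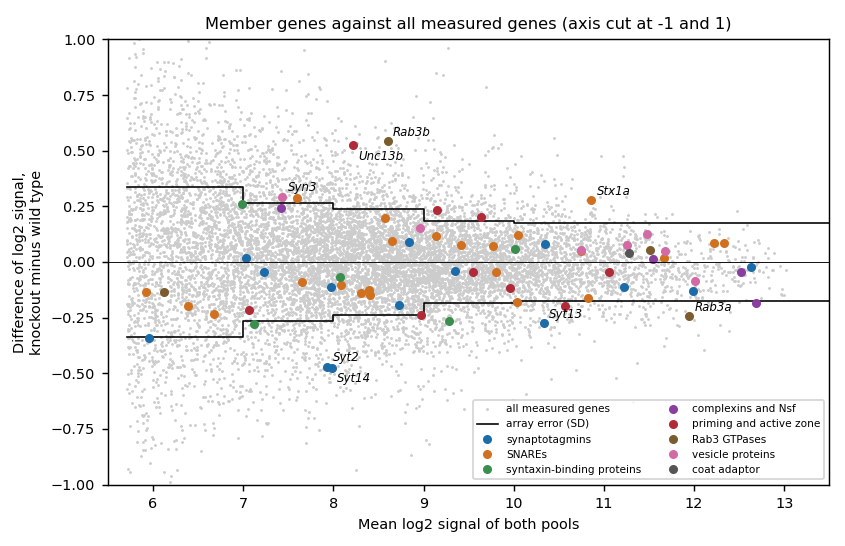
Difference of log2 signal (knockout minus wild type, y axis) against the mean log2 signal of both pools (x axis) for all 11312 measured genes in grey and for the members in colour by role; black steps mark plus and minus 1 array error, and the y axis is limited to -1 to 1. Rab3b and Unc13b lie above the upper step, and Syt2 and Syt14 lie below the lower one. Of the 27 members with a mean log2 signal of 10 or more, 25 lie within 1.2-fold, and Syt13, Rab3a and Stx1a are among those beyond the steps.

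Synaptotagmins, the calcium sensors and their relatives, were the role group with the lowest median, -0.11 over 14 measured genes. Of these 11 were lower (78.6%) and 3 higher by brightest probe sets, beside 49.0% lower among all measured genes. By the mean of their measured probe sets, Syt7 (0.01) and Syt11 (0.06) were higher instead, while Syt4, Syt9 and Syt12 stayed higher. Whether the share of synaptotagmins differs from that of all genes was not tested. The median of synaptotagmins stayed below 0 in each of the 10 alternatives, which use the same arrays, and the floors did not move it. The medians of syntaxin-binding proteins and of priming and active zone genes also stayed below 0 in each alternative. Syt1 and Syt12 did not keep their sign under every scaling. The fast sensors of synchronous release are Syt1, Syt2 and Syt9. Syt1 read 6315 in knockout and 6408 in wild type by its brightest probe set (-0.02), and its other measured probe sets differed by -0.18, -0.31 and 0.06. Syt2, which serves as the fast sensor in the hindbrain and in many inhibitory neurons, read 208 in knockout and 288 in wild type (1.39-fold lower, -0.47, array error 0.27). Its next probe set read 58.5 and 90.8 (1.55-fold lower, -0.63) and its dimmest 54.3 and 54.9 (-0.02). Thus the probe sets of Syt2 were all lower in the knockout pool, and the brighter pair each by more than the array error of its signal range. Syt9 differed by 0.09 with 472 in knockout and 443 in wild type.

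The slower, high-affinity sensor gene Syt7 read 2304 in knockout and 2490 in wild type (-0.11), with its other measured probe sets at -0.01, 0.07 and 0.10. Syt10, whose protein triggers IGF-1 release from olfactory bulb neurons, read 55.0 in knockout and 69.8 in wild type (-0.34, array error 0.34). Syt3 and Syt5, both of calcium-binding synaptotagmins, differed by -0.11 and -0.20. None of these but Syt10 passed its array error, and Syt10 only just.

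Several synaptotagmins lack the residues that bind calcium, among them Syt4, Syt11, Syt12, Syt13, Syt14 and Syt16. Syt13 read 1173 in knockout and 1418 in wild type (1.21-fold lower, -0.27, array error 0.17). Its other probe set read 614 in knockout and 804 in wild type (1.31-fold lower, -0.39). Both probe sets of Syt13 therefore differed in the same direction by more than the array error. Syt14 read 215 in knockout and 298 in wild type by its 1 measured probe set (1.39-fold lower, -0.47, array error 0.27). Syt4, a dense-core vesicle protein that restrains oxytocin release in hypothalamic neurons, read 1335 in knockout and 1263 in wild type (0.08). Its dimmer probe set read 323 in knockout and 204 in wild type, 1.58-fold higher (0.66, array error 0.24). The probe sets of Syt4 thus shared a direction and not a size, and their mean was 0.37. Syt11 had 5 measured probe sets, of which 4 lay between -0.13 and 0.01 and the remaining one, which can match several transcripts, read 3553 in knockout and 2407 in wild type (0.56). Syt12, Syt16 and Syt17 differed by 0.02, -0.04 and -0.04, and a dimmer probe set of Syt17 by -0.33.

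SNAREs, the proteins that drive fusion, were balanced, with 12 of 23 measured genes higher, 11 lower and a median of 0.02, which was -0.04 with median centring. The set of neuronal fusion comprises Stx1a, Snap25, Vamp1 and Vamp2. Stx1a, the plasma membrane syntaxin, read 2048 in knockout and 1690 in wild type (1.21-fold higher, 0.28, array error 0.17). This probe set can match several transcripts, and the other one read 836 in knockout and 740 in wild type (0.18, array error 0.19). Snap25, the partner of Stx1a, read 5330 in knockout and 5018 in wild type (0.09). Vamp2, the main vesicle SNARE of the forebrain, read 3276 in knockout and 3239 in wild type (0.02), and 2522 and 2680 by the other probe set (-0.09). The widest difference among these 3 genes was the 1.21-fold of Stx1a.

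Vamp1, the related vesicle SNARE that predominates in hindbrain and spinal cord, read 1714 in knockout and 1919 in wild type (-0.16, array error 0.17). Its dimmer probe set read 219 in knockout and 350 in wild type, 1.60-fold lower (-0.67, array error 0.24). Both probe sets were lower in the knockout pool, by unlike amounts.

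The other SNAREs act outside or beside synaptic release. Stx2, Stx3 and Stx4a, of plasma membrane syntaxins in many tissues, differed by 0.29, -0.15 and 0.20, each from its brightest probe set, and Stx2 read 214 in knockout and 175 in wild type. Of 12 SNAREs of endosomes, Golgi, autophagosomes and endoplasmic reticulum, a list drawn up after the values were seen, 6 were higher and 6 lower, from -0.18 (Stx7, of late endosomes) to 0.12 (Vamp4, of the trans-Golgi network). Stx6, also of the trans-Golgi network, was higher in the knockout pool by all 4 measured probe sets, with a mean of 0.23. They differed by 0.12, 0.38, 0.06 and 0.38 in order of falling signal, and the brightest can match several transcripts. Stx17, the syntaxin of autophagosomes, was lower by all 3, at -0.10, -0.15 and -0.20, and Stx8 by both, at -0.13 and -0.20. Stx18, of the endoplasmic reticulum, had measured probe sets from -0.33 to 0.31 and so no settled direction. Vamp3, of recycling endosomes, was higher by 4 of 5 probe sets (0.03 to 0.18), while the dimmest read 58.2 in knockout and 92.0 in wild type (1.58-fold lower). The dimmest, the brightest and the next brightest can match several transcripts, and without such probe sets the difference of Vamp3 was 0.03. The ubiquitous Snap23, Snap29 and Snap47 differed by -0.20, -0.23 and 0.09, the first with a probe set at 0.46. Snap29 was lower by all 3 probe sets, from -0.42 to -0.02, of which -0.42 exceeded the array error of 0.34. Vamp5, Vamp7 and Vamp8 differed by -0.14, 0.09 and -0.09, and Stx12, Stx16 and Stx5a by 0.05, 0.07 and -0.05.

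Syntaxin-binding proteins had a median of -0.07 over 5 measured genes, 3 lower and 2 higher. Stxbp2, which encodes the Munc18 protein of granule secretion in blood cells and epithelia, read 126 in knockout and 153 in wild type (1.21-fold lower, -0.28, array error 0.27). Another of its probe sets read 56.3 in knockout and 103 in wild type (1.83-fold lower, -0.87), and the third read 116 and 119 (-0.04). All 3 were lower, but the first of these and the second can match several transcripts, and without such probe sets the difference was -0.04. Stxbp5, which encodes tomosyn, an inhibitor of SNARE assembly, read 568 in knockout and 683 in wild type (-0.27, array error 0.19), and its other probe sets differed by 0.03 and -0.18. Stxbp4, which encodes Synip, was higher by both measured probe sets (0.26 and 0.21, array error 0.34). Stxbp3, the gene shown above with the CREB palindrome in its promoter window, read 263 in knockout and 276 in wild type (-0.07), and Stxbp6, which encodes amisyn, differed by 0.06.

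Complexins and Nsf differed little. Cplx1, a clamp and helper of neuronal SNAREs, read 6162 in knockout and 7012 in wild type (-0.19, array error 0.17), with other probe sets at -0.10 and 0.10. Cplx2, its close relative, read 3004 in knockout and 2972 in wild type (0.02). Cplx3, known from retinal ribbon synapses, read 186 in knockout and 158 in wild type (0.24, array error 0.27). Nsf, the ATPase that disassembles SNARE complexes, read 5799 in knockout and 5990 in wild type (-0.05). The largest of these differences in size, that of Cplx3, was under 1.2-fold.

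Among the priming and active zone genes, 6 of 9 were lower (66.7%, beside 49.0% of all measured genes) and 3 higher, with a median of -0.05. The 3 Munc13 genes did not share a direction. Unc13a, which encodes Munc13-1, the main priming factor of forebrain synapses, read 464 in knockout and 546 in wild type (-0.24, array error 0.24). Unc13b, which encodes Munc13-2, read 357 in knockout and 248 in wild type (1.44-fold higher, 0.53, array error 0.24), by 1 measured probe set. Unc13c, of the cerebellar Munc13-3, read 614 in knockout and 523 in wild type (0.23), and its other probe set differed by -0.05.

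The RIM genes, which encode scaffolds that tether vesicles and calcium channels, were lower by the brightest probe set of each. Rims1 read 1420 in knockout and 1631 in wild type (-0.20, array error 0.17) and was also lower by its other probe set (-0.11). Rims2 was lower by all 3 measured probe sets, from -0.18 to -0.04. Rims3 read 954 in knockout and 1034 in wild type (-0.12), and its dim probe set read 61.7 in knockout and 98.2 in wild type (1.59-fold lower, -0.67, array error 0.34). Rims4 differed by -0.22, with another probe set at 0.06. Except for Rims1 and the dim probe set of Rims3, these values lay within the array error. Cadps and Cadps2, the CAPS genes of dense-core vesicle priming, differed by -0.05 and 0.20, and Cadps2 read 852 in knockout and 741 in wild type (array error 0.19).

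Rab3 GTPases, which mark vesicles ready for docking, held the highest difference among the members by brightest probe sets. Rab3b read 469 in knockout and 322 in wild type (1.46-fold higher, 0.54, array error 0.24), by its only probe set. Rab3a, the main Rab3 of synaptic vesicles, read 3619 in knockout and 4285 in wild type (1.18-fold lower, -0.24, array error 0.17). Its other probe set, which can match several transcripts, read 1657 in knockout and 2356 in wild type (1.42-fold lower, -0.51). Rab3b and Rab3a thus differed in opposite directions, each beyond the array error. Rab3c read 2984 in knockout and 2873 in wild type (0.05), and its other measured probe sets were at 0.00 and 0.01. Rab3d, of exocrine granules, had probe sets from -0.43 to 0.20. Rab3a lies on the chromosome of Crtc1, 19 protein-coding genes away in the order of GRCm38.p6, and Unc13a lies on it 57 genes away and Stxbp2 431 genes away. These 3 members were all lower by their brightest probe sets, and a part of the altered locus in their values was not tested.

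Proteins of the vesicle membrane and surface were higher in 6 of 7 genes, beside 5754 of all 11312 measured genes, although Sv2a and Syp did not keep this sign under every scaling. The median of the group was 0.07 and stayed above 0 in each of the 10 alternatives, of which the floors did not move it. Syn3, the synapsin of developing neurons, was higher by all 3 of its probe sets. They read 192 in knockout and 156 in wild type (1.23-fold, 0.29, array error 0.27), 123 and 89.0 (1.38-fold, 0.47, array error 0.34), and 81.6 and 59.5 (1.37-fold, 0.46, array error 0.34). Each passed its array error, and their mean was 0.41. The brightest can match several transcripts, and without such probe sets the difference of Syn3 was 0.47. The main synapsins of mature terminals, which tether vesicles to the reserve pool, differed much less. Syn1, the gene shown above with the CREB palindrome, read 4008 in knockout and 4257 in wild type (-0.09), and Syn2 read 2510 and 2384 (0.07) with 3 further probe sets above 0 and 1 below.

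Sv2b, a vesicle glycoprotein gene, was higher by both probe sets at 0.12 each, and Sv2a, the target of levetiracetam, differed by 0.05 with 1744 in knockout and 1679 in wild type. Syp, which encodes synaptophysin, read 3341 in knockout and 3233 in wild type (0.05), and Synpr, which encodes synaptoporin, read 526 and 474 (0.15). Snap91, which encodes the clathrin adaptor AP180 that retrieves vesicle membrane, read 2525 in knockout and 2454 in wild type (0.04). Apart from Syn3, no vesicle protein gene exceeded its array error.

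**Figure D3:**
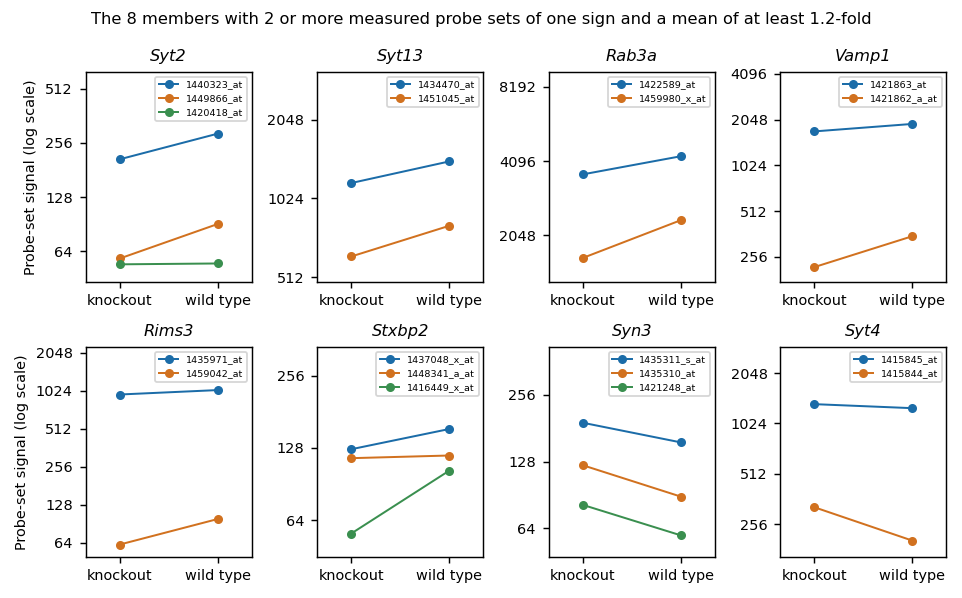
Signals (log scale, y axis) in the knockout pool and the wild-type pool for every measured probe set of the 8 members with 2 or more measured probe sets of the same sign and a mean difference of at least 1.2-fold; each line is a probe set. Lines rise toward wild type in Syt2, Syt13, Rab3a, Vamp1, Rims3 and Stxbp2 and toward knockout in Syn3 and Syt4, and they are close to parallel in Syt13 and Syn3.

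Whether the probe sets of a gene shared a direction was counted over the 41 members with 2 or more measured ones. In 20 of them (48.8%) all measured probe sets had the same sign, against 42.6% of 5199 such genes overall. A mean of at least 1.2-fold in the same direction was found in 8 members (19.5% of the 41), beside 11.3% of the 5199 genes, and whether these shares differ was not tested. Of these, Syt2, Syt13, Rab3a, Vamp1, Rims3 and Stxbp2 were lower in the knockout pool and Syn3 and Syt4 higher. Only in Syt13, Rab3a and Syn3, of these 8, did every measured probe set exceed its array error. Under the 3 other scalings 57 of the 67 members kept their sign, and the 10 that did not included Syt1, Vamp2, Syp, Sv2a and Cplx2. The share of all genes that kept their sign is not given here. All 17 members that exceeded their array error were among the 57. Median centring moved values by about -0.06 and no array error was below 0.17, so that scaling could not reverse these 17.

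**Figure D4:**
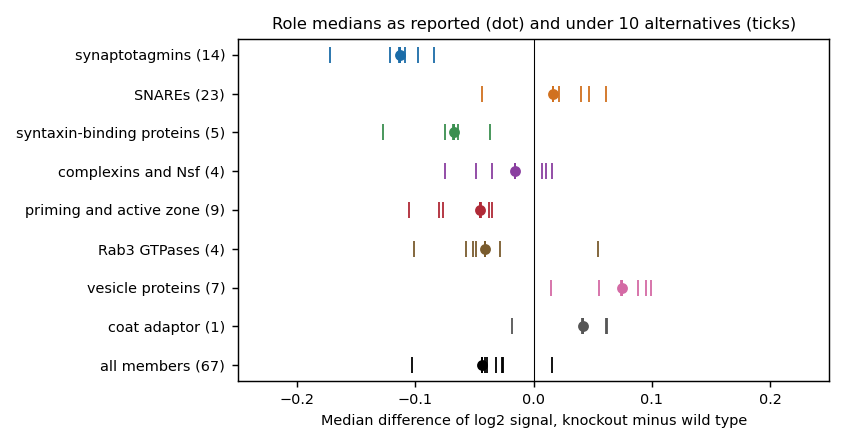
Median difference of log2 signal (knockout minus wild type, x axis) for each role group and for all 67 members, with the number of measured genes in brackets; dots are the values as reported and ticks the 10 alternative settings. Synaptotagmins, syntaxin-binding proteins and priming and active zone genes lie below 0 throughout, and vesicle proteins lie above 0 throughout. The ticks of SNAREs, complexins and Nsf, Rab3 GTPases, the coat adaptor and all members fall on both sides of 0.

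The members with the CREB core in their promoter window and those without it had overlapping differences. The 16 with it, all measured, were lower in 11 and higher in 5, with a median of -0.11 and a range from -0.47 (Syt2) to 0.54 (Rab3b). The 38 measured members with a window and no core were lower in 19 and higher in 19, with a median of 0.00. Over all measured genes the medians were 0.00 with the core and 0.00 without it, and 49.5% and 49.2% were lower. The genes with the full palindrome, Syn1 and Stxbp3, differed by less than their array error.

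Further genes of vesicle release and recycling lay outside the families above. Of a list of 40, which held among others the SNAP adaptors Napa, Napb and Napg, the active zone scaffolds Bsn and Pclo, endocytic proteins and vesicular transporters, 37 were measured, 21 higher and 16 lower, with a median of 0.02. By their brightest probe sets none was at least 1.5-fold apart, 2 were at least 1.2-fold higher and none that much lower. The shares of all genes at 1.2-fold were 11.9% and 9.97%, but they depend on signal. All listed genes measured except Doc2a and Ppfia2 had a mean log2 signal of 8 or more. Of all genes, 6.39% were that much higher and 8.14% lower between 8 and 10, and 1.96% and 2.74% at 10 or more. Cask, a presynaptic scaffold, read 399 in knockout and 301 in wild type (1.32-fold higher, 0.41, array error 0.24) and was higher by all 4 measured probe sets, with a mean of 0.60 (1.51-fold), which is wider than the mean over probe sets of any member. Lin7a, whose protein binds Cask, read 638 in knockout and 506 in wild type (0.33), but its probe sets disagreed in sign, with a mean of 0.08. The glutamate transporter genes Slc17a6 and Slc17a7 differed by 0.16 and 0.19 and the GABA transporter gene Slc32a1 by -0.13.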

How the data were processed

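Hypothalamic RNA of 1 Crtc1 knockout pool and 1 wild-type pool, each of 3 mice, was measured on Affymetrix expression arrays, with biotinylated cRNA prepared from 30 ug of RNA, per the labels' protocols. The authors deposited 1 linear signal intensity per probe set and array. The summary algorithm and scaling are not stated in the labels or the table. After trimming 2% of probe sets at each end, the mean signal was 199.95 for either array, while medians were 54.4 (knockout) and 52.2 (wild type). Equal trimmed means would follow from scaling by 1 factor per array, but no label or header says how the authors scaled the intensities. The number of arrays limits precision.

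The table held 45101 probe sets, 64 of them the manufacturer's controls, which were left out. Gene names came from the platform annotation in GEO (probe sets with 1 gene only), and all 73 member symbols stood in the RefSeq table of GRCm38.p6. Signals were floored and put on the log2 scale, and 22519 probe sets passed the limit on mean signal (linear equivalent 52.3), 19814 of them with 1 gene. Folds of 1.5 and 1.2 served for counts. Processing used Python 3.11.15, pandas 2.3.3, numpy 2.4.6 and statsmodels 0.14.6 (loess span 0.3), and was tested on simulated data.

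The members, lists and settings were chosen with earlier results of these data known. Full values were given to members at least 1.5-fold apart by any measured probe set, those with 2 or more probe sets of the same sign and a mean of at least 1.2-fold, those with probe sets at least 1.2-fold apart in opposite directions, and the brightest and most different genes of each role. Alternatives were 3 scalings, 2 floors, a pseudocount of 16, 2 limits on signal, averaging of probe sets, and the removal of probe sets with the ID endings _s_at or _x_at, which can match several transcripts. Of the 139 measured member probe sets 19 have these endings, and they are not marked at every value above.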

Additional observations from a re-analysis of the deposited data

How the results depend on the processing

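No paired analysis was possible because each genotype was 1 array, and leaving out a replicate was not possible for the same reason. No member gene was at least 1.5-fold apart in any of the 10 alternatives. The number of member probe sets at least 1.5-fold higher, 1 as reported, was 2 with quantile normalization (beside 2.10% of all probe sets) and 3 of 172 with no limit on signal (beside 4.54%), and the number at least 1.5-fold lower, 5 as reported, was 2 with the pseudocount (beside 1.12%), 1 with the limit at the 70th percentile (0.67%) and 3 without probe sets that can match several transcripts (1.83%). The counts at 1.2-fold, 5 genes higher and 6 lower as reported, were 2 and 10 with median centring (beside 8.73% and 14.6% of all genes), which moved the median of all genes by -0.06. The members' median ran from -0.10 (median centring) to 0.02 (70th percentile), that of synaptotagmins from -0.17 to -0.08 and that of vesicle proteins from 0.01 to 0.10. Of 256 values of 26 named members under the alternatives, 253 moved by less than the array error. The exceptions came from averaging all measured probe sets, which gave -0.39 for Rims3, 0.37 for Syt4 and -0.42 for Vamp1. The floors and the limits on signal left the retained values of named members unchanged, and averaging cannot move a member with 1 measured probe set. Median centring moved each value by about -0.06, so much of the count of 253 was fixed by the settings. Dim probe sets limit the precision, since the array error below a mean log2 signal of 7 was 0.34.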
